A study of Mus musculus with 9 samples.

Results

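Transcript levels of buffer-treated cultured mouse valvular interstitial cells (VICs) were described from 3 libraries, Control 1, Control 2 and Control 3, chosen by their label among the 9 samples of the study. Mice of the C57BL/6J strain were the source, with aortic and mitral valve given as the tissue, and the isolated cells were grown in Dulbecco's modified Eagle's medium with 10% fetal bovine serum, insulin at 5 ug/mL, EGF (epidermal growth factor) at 2 ng/mL and basic FGF (fibroblast growth factor) at 0.5 ng/mL. They received buffer for 24 h at 37 C and 5% CO2, although one label calls the same samples untreated. Age, sex and passage number are not stated in the labels, and nothing there says that the 3 libraries came from separate cultures or animals, so the spread between them may be technical.

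VICs are the fibroblast-like cells of the heart valve leaflets. They secrete and turn over the collagen, elastic fibres and proteoglycans that give the leaflet its strength and elasticity, and they respond to growth factors, lipids and mechanical load. In valve disease such cells can take on a contractile, myofibroblast-like state marked by smooth muscle actin, or a bone-like state marked by osteogenic factors.

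The values are TPM, which give each gene's part of the transcript pool after correction for its length, scaled to the same total in every library, so levels of different genes can be compared on this scale. Means are given ± SD over n = 3 libraries, and where 3 values stand in a row they are Control 1, Control 2 and Control 3 in that order. A gene is called expressed at a mean of at least 1 TPM, low from 0.1 to 1 TPM and near 0 under 0.1 TPM. Over all protein-coding genes 55.5% were expressed, the share beside which counts of expressed members are to be read. In neighbouring genes of an order, levels are called overlapping where the ranges of the 3 libraries overlap. No test was made, because 1 group was described and nothing was compared with it. In RNA from a whole culture, fewer cells of a type and less RNA per cell cannot be told apart.

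S100a4, a calcium-binding protein abundant in fibroblasts, Vim, the intermediate filament protein of mesenchymal cells, and Eef1a1, a translation elongation factor, were among the 25 genes of highest level. The 60 bases before the RefSeq start (GRCm38.p6) are shown for 5 of the genes that carry the description, because they differ in whether the TATA box letters TATAAA stand at the usual distance from the start. Capitals mark TATAAA.
S100a4, chr3:90603710-90603769, plus strand: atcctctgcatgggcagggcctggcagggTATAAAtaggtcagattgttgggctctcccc
Postn, chr3:54361047-54361106, plus strand: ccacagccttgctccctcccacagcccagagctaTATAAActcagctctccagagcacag
Col3a1, chr1:45311478-45311537, plus strand: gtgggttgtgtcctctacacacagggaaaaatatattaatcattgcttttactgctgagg
Bgn, chrX:73483541-73483600, plus strand: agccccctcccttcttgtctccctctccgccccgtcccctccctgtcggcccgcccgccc
Tbx20, chr9:24774304-24774363, minus strand: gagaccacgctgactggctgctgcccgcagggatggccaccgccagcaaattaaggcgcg

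The motif began 31 bases before the start of S100a4 and 26 bases before this start of Postn, which encodes the matricellular protein periostin. It began 32 bases before the start of Vim, whose window is not shown because it overlaps an annotated untranslated region. A second RefSeq start of Postn, further upstream, had no TATAAA in its 60 bases, nor had Col3a1, which encodes the chain of type III collagen, Bgn, which encodes the proteoglycan biglycan, or Tbx20, a T-box transcription factor of heart and valve. Sense-strand TATAAA starting 35 to 22 bases before the start was found in 2.82% of the 16273 protein-coding genes with a promoter entry. The share was 4.85% among genes under 1 TPM, 1.16% from 1 to 100 TPM and 2.41% at 100 TPM or more. Among the 100 highest nuclear protein-coding genes other than those of ribosomal proteins, it was in 6 of the 85 with an entry (7.06%). On either strand and anywhere in the 300-base window around the start the letters stood in 14.4% of all protein-coding genes with an entry and in 20% of those 85. A match describes these letters only and says nothing of a factor's binding.

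The 4 markers of VICs were all expressed, and their levels did not overlap. Vim was listed at 6224, 5297 and 6523 TPM (mean 6015 ± 639 TPM), which placed it at rank 7 of all 51810 genes. Col1a1, which encodes the main chain of type I collagen, was listed at 1584, 1346 and 1161 TPM (mean 1364 ± 212 TPM, rank 122). All 3 libraries of Col1a1 lay below the lowest of Vim. Acta2, the smooth muscle actin used as a sign of the myofibroblast state, was listed at 725, 928 and 842 TPM (mean 832 ± 102 TPM, rank 183). Postn was listed at 173, 54.7 and 113 TPM (mean 114 ± 59.1 TPM, rank 1446), with Control 1 highest and Control 2 lowest. Positions in GENCODE M21 (GRCm38) were chr2:13573927-13582826 on the plus strand for Vim, chr11:94936224-94953042 on the plus strand for Col1a1, chr19:34241090-34255590 on the minus strand for Acta2 and chr3:54361109-54391037 on the plus strand for Postn. Of the stretches of 31 bases in the annotated transcripts, 0.187% of those of Vim, 0.0459% of Col1a1 and 1.39% of Acta2 also occur in another gene, and none of Postn.

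All 24 genes of a wider fibroblast and valve list were expressed and together made up 2.97 ± 0.182% of transcripts. S100a4 led it at 9883, 9126 and 8999 TPM (mean 9336 ± 478 TPM), second of all genes. S100a4 shares 49.2% of its stretches with Gm42674, a gene model listed at 0, 0 and 0.36 TPM. Almost none of the pair's level was thus listed under the model, although reads of a shared stretch fit either gene. Sparc, a collagen-binding glycoprotein, averaged 2853 ± 726 TPM, and Dcn, which encodes the proteoglycan decorin, 2035 ± 816 TPM. Sparc was highest in Control 1 and Dcn in Control 2. Fap, a protease of activated fibroblasts, was the lowest member at 2.85 ± 0.777 TPM and was chosen after its values were seen.

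**Figure D1:**
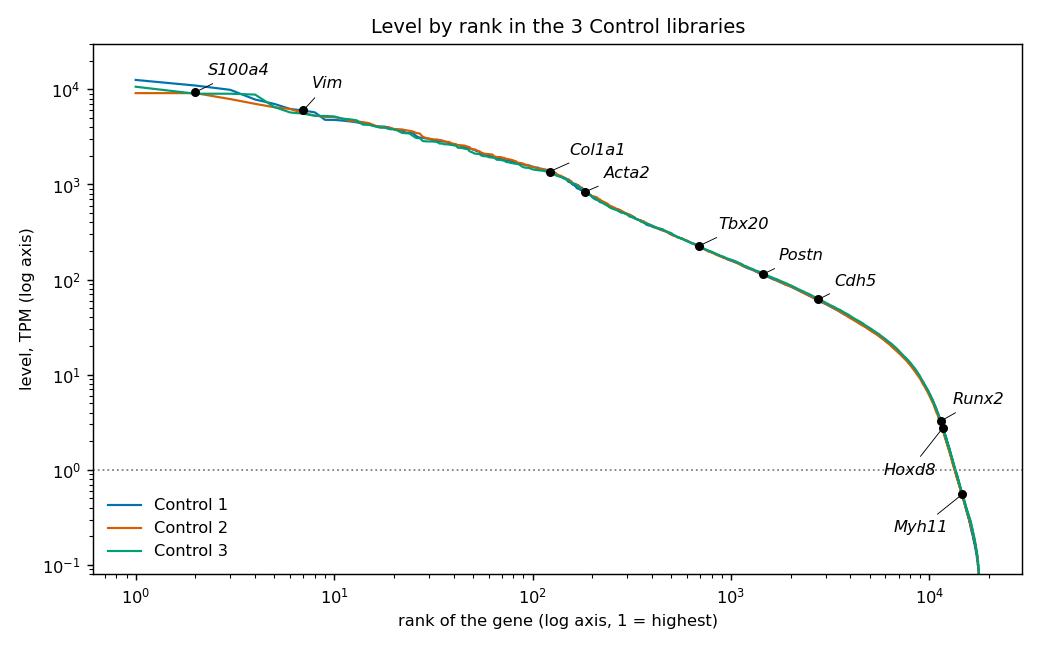
Level of each gene in TPM (log axis) against its rank (log axis) in the 3 Control libraries, each drawn as a line, with 10 genes marked at their mean. The 3 lines nearly coincide, and the marked genes run from S100a4 at 9336 TPM to Myh11 at 0.553 TPM, with the dotted line at 1 TPM.

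Expression was concentrated in few genes. A mean of at least 1 TPM was reached by 13485 genes (26% of those listed), of which 12121 were protein-coding, or 55.5% of the 21830 protein-coding genes. The 397 highest genes made up 50% of all TPM. The 100 highest held 28.9 ± 0.605%, and 56 of them encode ribosomal proteins. Genes of the cytosolic ribosome together made up 16.1 ± 0.693% of transcripts.

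The highest genes also included those of calcium-binding, iron-storage and cytoskeletal proteins. Eef1a1 averaged 9700.1 ± 1103 TPM, and Rplp1, an acidic protein of the large ribosomal subunit, 6410.1 ± 658 TPM. S100a6 and S100a11, relatives of S100a4, averaged 5390.4 ± 542 TPM and 4491 ± 224 TPM. Lgals1, which encodes the sugar-binding galectin-1, averaged 4226 ± 334 TPM. Fth1 and Ftl1, which encode the heavy and light chains of ferritin, averaged 5606 ± 2022 TPM and 4703 ± 265 TPM. Fth1 was listed at 4078, 7899 and 4841 TPM and was highest in Control 2, whereas Ftl1 ranged from 4408 to 4920.1 TPM. Ppia, a prolyl isomerase, averaged 4881 ± 764 TPM, Tpt1, a growth-associated protein, 4003 ± 433 TPM and Gapdh, a glycolytic enzyme, 3447 ± 359 TPM. CT010467.1, a ribosomal RNA model on chromosome 17, averaged 7862 ± 2774 TPM. Many 31-base stretches of Rplp1 (75.1%), CT010467.1 (70.4%), Ftl1 (64.1%), Eef1a1 (51.5%) and S100a11 (48.9%) also occur in other annotated genes. Reads of these genes could therefore be split with others. S100a6 and Lgals1 share none.

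Gene models with the letters of mitochondrial genes were among the highest. Gm28661, Gm28437 and Gm10925, pseudogenes that lie together on chromosome 1, were among the 25 highest genes at 5256, 4449 and 4218 TPM. All of their 31-base stretches also occur in mt-Co2, mt-Co3 and mt-Atp6 respectively. mt-Co2, a subunit of cytochrome c oxidase, was itself listed at 19.3, 597 and 651 TPM. The genes of the mitochondrial genome made up 2.70 ± 0.651% of transcripts, and 4.39% with the 5 pseudogenes of this cluster, and reads of a gene and its copy could be split between them.

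Transcription factors of the valve and heart mesenchyme were widely expressed, 32 of 37 (86.5%), beside 55.5% of all protein-coding genes. Tbx20 was listed at 211, 179 and 285 TPM (mean 225 ± 54.3 TPM). Prrx1, a homeodomain factor of mesenchyme, was listed at 193, 207 and 213 TPM, and Tcf21, a factor of cardiac fibroblasts, at 183, 123 and 200.4 TPM. The ranges of these 3 overlapped. Snai1, a driver of the transition from endothelium or epithelium to mesenchyme, averaged 139.9 ± 13.1 TPM. Hand2 and Gata4, both needed for heart development, averaged 128 ± 2.88 TPM and 127 ± 14.3 TPM, and their ranges overlapped. Klf4 averaged 82.7 ± 14.3 TPM and Twist1, a factor of cushion mesenchyme, 72.2 ± 3.30 TPM. The members under 1 TPM were Meox2 (0.803 TPM), Msx2 (0.65 TPM), Isl1 (0.34 TPM), Wt1 (0.06 TPM) and Hand1 (0.04 TPM). Isl1 marks early heart progenitors and Wt1 the epicardium, the outer layer of the heart.

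Whole transcription factor families were read in the same way. Of the 6 GATA factors, Gata4, Gata6 (53.9 ± 1.07 TPM), Gata2 (13.8 ± 3.46 TPM), Gata3 (5.53 ± 0.795 TPM) and Gata5 (1.24 ± 0.396 TPM) stood in this order with no overlap between neighbours. Gata1, the erythroid member, was listed at 0 in all 3 libraries. Among 17 T-box factors 8 were expressed, and Tbx20 held 75.3% of the family's summed TPM. Tbx18, a factor of epicardium and sinus node, followed at 37.7 ± 5.87 TPM and Tbx5 at 6.46 ± 0.451 TPM. Tbx3, Tbx2 and Tbx4 averaged 3.33, 2.79 and 2.22 TPM, with overlapping ranges. Of 20 SOX factors 9 were expressed, led by Sox9, a factor of cartilage and valve cushions, at 50.3 ± 2.21 TPM, and by Sox4 at 33.1 ± 8.33 TPM. Sox10, of neural crest derivatives, was low at 0.487 TPM.

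HOX genes, which encode position along the trunk, were nearly silent. Hoxd8, at 2.53, 2.67 and 3.1 TPM, was the only 1 of 39 with a mean of at least 1 TPM, beside 55.5% of all protein-coding genes. Another 11 were low and 27 near 0. The summed TPM of the whole family was 6.54, 6.1 and 7.48 TPM.

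**Figure D2:**
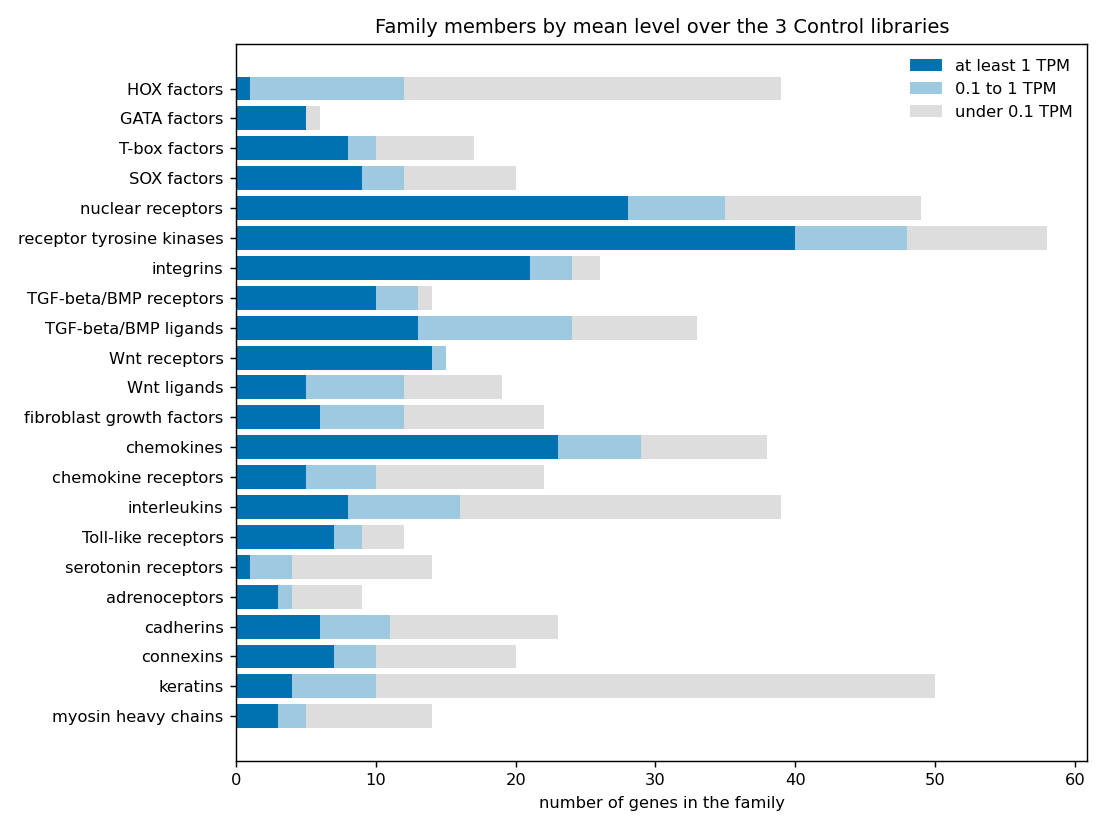
Number of genes (axis from 0) in 22 families by mean level over the 3 Control libraries, in 3 classes from at least 1 TPM to under 0.1 TPM. HOX factors, serotonin receptors and keratins have 1 of 39, 1 of 14 and 4 of 50 members at or above 1 TPM, whereas Wnt receptors have 14 of 15 and GATA factors 5 of 6.

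The cytoplasmic actins stood above smooth muscle actin in every library. Actb and Actg1, the cytoplasmic actins, averaged 3613 ± 377 TPM and 3174 ± 269 TPM, with overlapping ranges. Actb was 4.36 ± 0.382 times the level of Acta2. Both cytoplasmic actins share 31-base stretches with other annotated genes (23.6% of Actb and 40.2% of Actg1). Actg2, the enteric smooth muscle actin, averaged 4.62 ± 1.72 TPM, and Acta1 and Actc1, the skeletal and cardiac forms, were low at 0.277 and 0.13 TPM.

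Of 30 contractile genes 27 were expressed. Myl6, a myosin light chain, averaged 2140.5 ± 246 TPM and Tpm4, a tropomyosin, 1227 ± 77.2 TPM. Tagln, an actin-binding protein of smooth muscle and myofibroblasts, was listed at 701, 745 and 664 TPM, overlapping the range of Acta2. Tpm1 averaged 707 ± 25.3 TPM, Flna, a crosslinker of actin, 707 ± 103 TPM and Actn1, of adhesion sites, 504 ± 24.4 TPM. The 3 members under 1 TPM were Myh11 (0.553 ± 0.155 TPM), the myosin heavy chain of differentiated smooth muscle, Des (0.483 ± 0.117 TPM), its desmin filament, and Myocd (0.377 ± 0.241 TPM), the coactivator of the smooth muscle programme. Among myosin heavy chains, Myh9, of the non-muscle type, averaged 352 ± 38.3 TPM and Myh10 96.1 ± 9.39 TPM, and Myh6 and Myh7, of cardiac muscle, were near 0 at 0.02 and 0.00333 TPM.

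Matrix genes formed a main output. The 161 genes of collagens, glycoproteins, elastic fibres and proteoglycans made up 3.91 ± 0.768% of transcripts (4.79%, 3.54% and 3.40%). Control 1 was the highest and the other libraries lay close to each other. Without Mgp, the matrix Gla protein that inhibits calcification, the glycoproteins alone summed to 18831, 15142 and 15978 TPM, against 31394, 19150.5 and 19793 TPM with it.

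Collagen chains made up 0.661 ± 0.0782% of transcripts, and 29 of 44 were expressed (65.9%, beside 55.5% of all protein-coding genes). Col3a1 was listed at 1534, 1409.8 and 1352 TPM and Col1a2, the partner of Col1a1 in type I collagen, at 1452, 1155 and 1155 TPM. Col3a1, Col1a1 and Col1a2 overlapped in level and together held 61.3% of the collagen TPM. The ratio of Col1a1 to Col1a2 was 1.09 ± 0.0805. Col5a2, of the type V collagen found in fibrils of types I and III, followed at 567 ± 80.3 TPM, below all 3 and without overlap.

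Basement membrane and network collagens came next. Col4a1 and Col4a2, the widespread type IV chains, averaged 336 ± 109.8 TPM and 204 ± 54.7 TPM, with a ratio of 1.63 ± 0.0994. Col6a1 and Col6a2, of beaded microfibrils, averaged 308 ± 14 TPM and 260.3 ± 10.4 TPM, and their ratio of 1.18 ± 0.00678 was nearly constant across libraries. Col6a3, the third chain of that collagen, was lower at 68.2 ± 19.7 TPM. Col8a1 averaged 179 ± 42 TPM. Col2a1, the cartilage collagen, averaged 7.08 ± 1.66 TPM, and Col10a1, of hypertrophic cartilage, was near 0 at 0.0767 TPM.

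**Figure D3:**
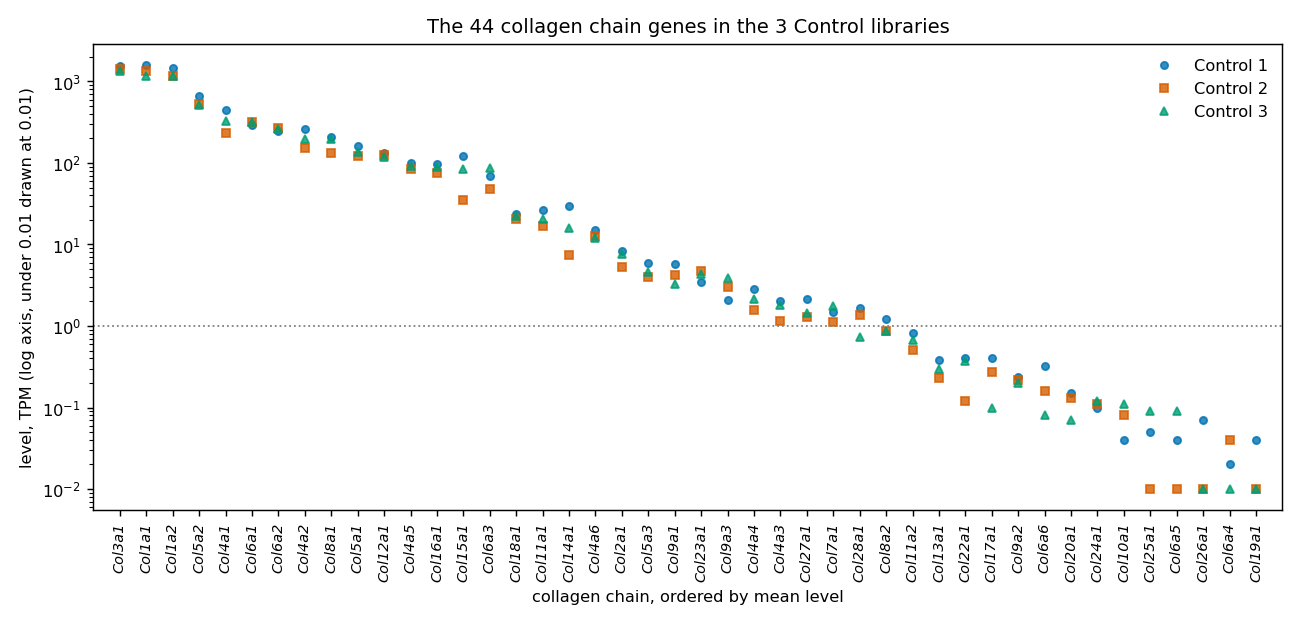
Levels in TPM (log axis, values under 0.01 drawn at 0.01) of the 44 collagen chain genes in the 3 Control libraries, ordered by mean, with the dotted line at 1 TPM. The chains Col3a1, Col1a1 and Col1a2 stand above all other chains in every library, and 29 chains have a mean of at least 1 TPM.

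Glycoproteins took a larger share than collagens, 2.34 ± 0.689% of transcripts, with 44 of 55 expressed. Mgp was listed at 12562, 4008 and 3815 TPM (mean 6795 ± 4996 TPM). Its rank among all genes ran from 1 to 19, and its mean without Control 1 was 3912 TPM. Thbs1, which encodes thrombospondin-1, averaged 2749 ± 145 TPM and varied little. Fbln2, a fibulin of elastic fibres and basement membranes, averaged 1802 ± 389.8 TPM. Fn1, which encodes fibronectin, averaged 1180.0 ± 185 TPM. The matricellular genes Ctgf and Cyr61 averaged 1405 ± 261 TPM and 999 ± 17.9 TPM. Spp1, which encodes osteopontin, averaged 777 ± 119 TPM.

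Laminin chains of epithelium were low or near 0, with Lamb3 at 0.403 TPM, Lama1 at 0.24 TPM and Lama3 at 0.08 TPM. Tnn and Tnr, tenascins of bone and brain, were at 0.0133 and 0.11 TPM. Matn1, of cartilage, and Vtn, which encodes the plasma protein vitronectin, were listed at 0 in all 3 libraries.

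Proteoglycans were led by the small leucine-rich class, in which 12 of 16 were expressed. Bgn was listed at 3803, 3473 and 3071 TPM and Dcn at 1633, 2974 and 1497 TPM, so the ratio of Bgn to Dcn varied from 1.17 in Control 2 to 2.33 in Control 1. Prelp averaged 345 ± 68.6 TPM and Lum, which encodes lumican, 257 ± 38 TPM. Aspn, a periodontal and cartilage member, averaged 3.41 ± 1.13 TPM and was chosen after its values were seen, and Kera, of the cornea, was near 0 at 0.0233 TPM. Among larger proteoglycans, Hspg2, which encodes perlecan, averaged 382 ± 35.5 TPM and Vcan, which encodes the versican abundant in the valve spongiosa, 110.0 ± 22.8 TPM.

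Elastic fibre genes were expressed in 16 of 17 cases. Efemp2, an assembly factor, averaged 445 ± 52.3 TPM, Emilin1 369.8 ± 66.4 TPM and Fbn1, which encodes fibrillin-1, 243 ± 8.67 TPM. Eln, which encodes elastin itself, was listed at 316, 66.5 and 186 TPM, with Control 1 highest and Control 2 lowest. Fbn1 varied far less, from 237 to 253 TPM.

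Collagen synthesis enzymes accompanied the chains, with 28 of 30 expressed. Serpinh1, the collagen chaperone, averaged 1682 ± 155 TPM, P4hb, a subunit of prolyl hydroxylase, 837 ± 121 TPM and Ppib, a prolyl isomerase, 779.8 ± 74.9 TPM. Pcolce, an enhancer of procollagen cleavage, averaged 727 ± 39.8 TPM and Lox, the crosslinking oxidase, 458 ± 96.9 TPM. Colgalt2 was low at 0.467 TPM and Tll2 near 0 at 0.0267 TPM.

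Timp1, an inhibitor of matrix breakdown, was higher than every matrix metalloproteinase in each library. Timp1, Timp3 and Timp2, inhibitors of metalloproteinases, averaged 3179.9 ± 389 TPM, 1048 ± 105 TPM and 852 ± 36.8 TPM, in this order without overlap, and Timp4 was listed at 0 in all 3 libraries. Of 23 matrix metalloproteinases 12 were expressed (52.2%), near the 55.5% of all protein-coding genes. Mmp3, a stromelysin, was listed at 664, 1096 and 647 TPM, highest in Control 2. Mmp2, a gelatinase, and Mmp14, its membrane-bound activator, averaged 299 ± 41.2 TPM and 245 ± 69.3 TPM, with overlapping ranges. Mmp9, the other gelatinase, was low at 0.303 TPM. The level of Timp1 was 4.11 ± 0.732 times that of Mmp3. Among 19 ADAMTS proteases, Adamts1 averaged 133 ± 25.5 TPM and Adamts5, which cleaves aggrecan and versican, 67.3 ± 19.9 TPM.

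Receptors for the factors added to the medium differed in level. Fgfr1 was listed at 141, 130.2 and 133 TPM and Fgfr2 at 57.9, 69.4 and 72 TPM. The level of Fgfr1 was 9.16 ± 2.26 times that of Egfr, the EGF receptor, which was listed at 13.5, 19.9 and 12.7 TPM. Igf1r and Insr, the receptors of insulin-like growth factor 1 and insulin, averaged 19.4 ± 3.77 TPM and 8.33 ± 0.825 TPM. Of the partners of Egfr, Erbb2 averaged 17.1 ± 1.42 TPM and overlapped it, and Erbb4 and Erbb3 were low at 0.987 and 0.173 TPM.

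Across 58 receptor tyrosine kinases 40 were expressed (69%, beside 55.5% of all protein-coding genes). Axl, a receptor of the vitamin K-dependent ligand Gas6, was highest at 473, 426 and 515 TPM. Pdgfra and Pdgfrb, the receptors of platelet-derived growth factor, were listed at 156, 183 and 146 TPM and 163, 168 and 138 TPM, at a ratio of 1.04 ± 0.0701. Their ranges overlapped and lay below every library of Axl. Ddr1 and Ddr2, which bind collagen, averaged 141 ± 16.7 TPM and 94.5 ± 16.6 TPM. The neurotrophin receptors Ntrk2 and Ntrk3 were low at 0.163 and 0.363 TPM, and Flt3, of blood progenitors, was near 0 at 0.0133 TPM.

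For transforming growth factor (TGF)-beta and bone morphogenetic protein (BMP) signalling, 10 of 14 receptors (71.4%) and 13 of 33 ligands (39.4%) were expressed, beside 55.5% of all protein-coding genes. Eng, the co-receptor endoglin, averaged 393 ± 32.7 TPM, above Tgfbr2 at 67.1 ± 3.43 TPM and Acvrl1 at 52.3 ± 8.81 TPM without overlap. Acvrl1 and Eng are also expressed by endothelial cells. Bmp4 was the highest ligand at 139 ± 22.5 TPM, followed by Inhba, a subunit of activin, at 106 ± 21.2 TPM. Tgfb1, Tgfb2 and Tgfb3 averaged 47.4, 42.4 and 42 TPM, and their ranges overlapped. Bmpr1b and Acvr1c were at 0.163 and 0.01 TPM.

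For Wnt signalling, 14 of 15 receptors and co-receptors (93.3%) and 5 of 19 ligands (26.3%) were expressed, beside 55.5% of all protein-coding genes. Ryk averaged 94.1 ± 3.56 TPM, Fzd1 91.5 ± 17.6 TPM and Lrp5 79.9 ± 3.88 TPM. Wnt16 and Wnt5a averaged 23.7 ± 5.78 TPM and 20.8 ± 3.0 TPM, with overlapping ranges, and Wnt3a was listed at 0 in all 3 libraries. The secreted antagonists Sfrp2, Frzb and Dkk3 were higher than every Wnt ligand. Sfrp2 was listed at 459.8, 883 and 436 TPM and Frzb at 281, 277 and 277 TPM. Dkk3 averaged 136 ± 18.3 TPM and Dkk1 was near 0 at 0.00667 TPM.

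Among fibroblast growth factors, Fgf2, the factor also present in the medium as protein, averaged 62.6 ± 9.46 TPM and held 71.1% of the family's TPM, with 6 of 22 members expressed. In the Notch pathway the ligand Jag1 averaged 26.7 ± 10.7 TPM, Notch2 26.1 ± 2.26 TPM and Notch1, which is linked to valve malformation, 19.7 ± 3.39 TPM. All 9 ligands of the PDGF and VEGF families were expressed, led by Vegfd at 112 ± 14.5 TPM. The insulin-like growth factor binding proteins Igfbp7 and Igfbp4 averaged 1621 ± 357 TPM and 1057 ± 283 TPM, and Igfbp1, of liver, was near 0 at 0.0233 TPM.

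Receptors of lipoproteins are of interest because the other samples of the study were given LDL (low-density lipoprotein) or its oxidised form, which are not described here. In the buffer-treated cells 24 of 29 were expressed. Lrp1, a large endocytic receptor, was listed at 397, 499 and 405 TPM. Scarb2 and Colec12, scavenger receptors, averaged 141 ± 15.4 TPM and 113 ± 6.95 TPM. The oxidised LDL receptors Cd36, Msr1 and Olr1, chosen after their values were seen, averaged 18.3 ± 11.8 TPM, 8.45 ± 3.35 TPM and 5.67 ± 2.56 TPM. Marco and Stab2, other scavenger receptors, were at 0.0167 and 0.26 TPM.

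Of 19 receptors of vasoactive mediators 8 were expressed, 5 were low and 6 near 0. F2r, a thrombin receptor, was listed at 242, 183 and 238 TPM and held 83.7% of the summed TPM of this list. Agtr1a, the main angiotensin receptor, was low at 0.497 TPM. Htr2a, at 6.18, 7.2 and 7.54 TPM, was the only 1 of 14 serotonin receptors expressed, and Htr2b, the member linked to drug-induced valve disease, was low at 0.26, 0.13 and 0.44 TPM. S1pr1, a receptor of sphingosine 1-phosphate that is also endothelial, averaged 51.7 ± 18.8 TPM and Lpar1, of lysophosphatidic acid, 45.8 ± 6.73 TPM.

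Adhesion receptors were led by Itgb1, the common integrin beta chain, at 662 ± 56.5 TPM, with 21 of 26 subunits expressed. Itgav averaged 155 ± 18.1 TPM and Itga5, of the fibronectin receptor, 80.4 ± 1.52 TPM. Among cadherins Cdh2, of mesenchyme, averaged 266 ± 11 TPM and Cdh11 79.4 ± 4.89 TPM. Cdh5, the cadherin of endothelium, was listed at 88.6, 36.4 and 60.4 TPM, a range that overlapped that of Cdh11, and Cdh1, of epithelium, was near 0 at 0.06 TPM. Gja1 was the highest connexin at 108 ± 4.45 TPM. Of 50 keratins 4 were expressed, led by Krt19 at 14.6 ± 2.77 TPM.

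Of 31 cytokine receptors 26 were expressed (83.9%), beside 55.5% of all protein-coding genes. Tnfrsf12a averaged 334 ± 32.3 TPM, Il6st, the shared signalling chain of the interleukin 6 family, 251 ± 28 TPM and Il11ra1 249 ± 15.4 TPM. Tlr4, the endotoxin receptor, averaged 21.1 ± 3.46 TPM among 7 of 12 Toll-like receptors expressed (58.3%). Nuclear receptors were expressed in 28 of 49 cases (57.1%). Both shares lay near the 55.5% of all protein-coding genes. Rarg averaged 66.2 ± 4.25 TPM and Nr1h2, a liver X receptor that senses oxysterols, 56.6 ± 2.92 TPM, and Ppara was low at 0.563 TPM.

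Of the secreted chemokines 23 of 38 were expressed (60.5%), near the 55.5% of all protein-coding genes. Of the chemokine receptors 5 of 22 were expressed (22.7%). Cxcl12, which retains leukocytes and progenitors, was listed at 776, 787 and 560.2 TPM. Ccl2, which attracts monocytes, was listed at 510.1, 1159.9 and 502 TPM and Cxcl5, which attracts neutrophils, at 251, 930.3 and 514 TPM. Both were highest in Control 2. Ccl7 was listed at 149, 552 and 192 TPM (mean 171 TPM without Control 2) and Cxcl1 at 75.4, 261 and 127 TPM (mean 101 TPM without Control 2). Ackr3, a scavenging receptor of Cxcl12, averaged 27.5 ± 3.82 TPM and Cxcr4, its signalling receptor, 1.74 ± 0.616 TPM, and Ccr2, the receptor of Ccl2, was near 0 at 0.01 TPM. Il6 was listed at 47.1, 75.7 and 16.9 TPM and Il1b at 0.04, 0.96 and 0.23 TPM.

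Genes of proliferation were all expressed, 32 of 32. Cdk1, the mitotic kinase, was listed at 336, 336 and 405 TPM, Pcna, the replication clamp, at 246, 257 and 319.5 TPM and Top2a, a topoisomerase of mitosis, at 165, 204 and 228 TPM. Control 3 was the highest library for each. Cdkn1a, a cell cycle inhibitor, averaged 160.4 ± 7.17 TPM, and Cdk4, which drives entry into the cycle, 405 ± 30.7 TPM.

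In the calcification list 14 of 23 genes were expressed (60.9%), near the 55.5% of all protein-coding genes. Mgp held 85% of the summed TPM of 13876, 5095 and 5014 TPM, and the mean sum without Control 1 was 5055 TPM. Together with Spp1 and Bmp4, which averaged 777 ± 119 TPM and 139 ± 22.5 TPM, Mgp held 96.4% of it. Alpl, the alkaline phosphatase of mineralising cells, was listed at 50.8, 95.8 and 41 TPM, and Ank, a transporter that raises the inhibitor pyrophosphate outside the cell, averaged 74.7 ± 5.91 TPM. Runx2, the osteoblast master factor, averaged 3.25 ± 0.208 TPM and was chosen after its values were seen. Sp7, which acts after it, was near 0 at 0.0233 TPM, Bglap, which encodes osteocalcin, was low at 0.187 TPM, and Ibsp was listed at 0 in all 3 libraries.

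Markers of other cell types of the valve were also present. All 12 endothelial markers were expressed, beside 55.5% of all protein-coding genes, with summed TPM of 508, 235 and 360.1 TPM. Egfl7 averaged 126 ± 38.4 TPM, Emcn 59 ± 30.7 TPM and Pecam1 47.5 ± 16.8 TPM. Of 13 macrophage and leukocyte markers 12 were expressed, with sums of 515, 247 and 484 TPM. Lyz2, a lysozyme that lung epithelium also makes, held 71.1% of that sum at 369.9, 175 and 340.1 TPM. Ptprc, the leukocyte antigen CD45, averaged 1.51 TPM and was chosen after its values were seen. Both lists were lowest in Control 2.

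**Figure D4:**
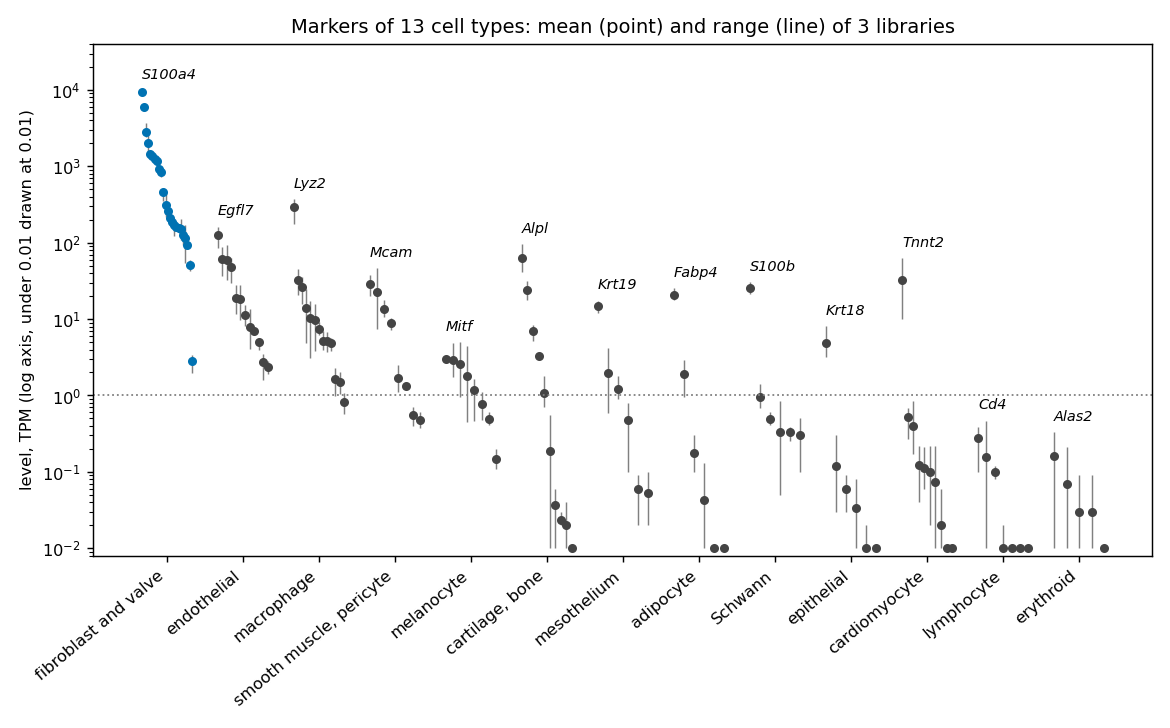
Mean level in TPM (points, log axis, values under 0.01 drawn at 0.01) and range over the 3 Control libraries (lines) of the markers of 13 cell types, ordered within each type, with the highest marker named and the dotted line at 1 TPM. All 24 fibroblast and valve markers and all 12 endothelial markers lie above 1 TPM, and no lymphocyte or erythroid marker does.

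A smaller part of the markers of melanocytes, smooth muscle and other types was expressed. Whether such cells were in the culture was not tested. Melanocyte markers summed to 20.4, 8.32 and 10.1 TPM, with 5 of 8 expressed. The sum was spread over several members, with a median member at 1.48 TPM and 23.2% in the highest. Kit was listed at 5, 0.95 and 1.85 TPM. The other 3 were low, among them Tyr, the pigment enzyme, at 0.147 TPM. Cardiomyocyte markers summed to 65.3, 10.5 and 24.5 TPM, nearly all of it Tnnt2, cardiac troponin T, at 63, 9.96 and 23.3 TPM. Without Control 1 the mean of Tnnt2 was 16.6 TPM, and the other markers summed to a mean of 1.36 TPM, with Nppa listed at 0 in all 3. The smooth muscle and pericyte list had 6 of 8 expressed, with Mcam at 28.9 ± 8.63 TPM and its defining Myh11 and Des low. In the Schwann cell list only S100b was expressed, at 25.3 ± 4.45 TPM, and in the epithelial list only Krt18, at 4.93 ± 2.80 TPM. Fabp4, an adipocyte and endothelial gene, averaged 20.7 ± 4.21 TPM, and Lep and Cfd were listed at 0 in all 3 libraries. Cartilage and bone markers were expressed in 5 of 10 cases (50%) and mesothelial ones in 3 of 6 (50%). These shares and the 62.5% of the melanocyte markers lay near the 55.5% of all protein-coding genes. No lymphocyte or erythroid marker reached 1 TPM; their mean sums of 0.54 and 0.29 TPM were 0.355 and 0.165 TPM without Control 1.

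The 3 libraries were alike for most genes. Log2(TPM + 1) correlated at a Pearson r of 0.977 to 0.979 between libraries, over 13485 genes that are not independent of each other. The median coefficient of variation (CV, the SD as a percentage of the mean) was 9.10% among genes of at least 10 TPM. Of 6292 protein-coding genes of at least 20 TPM, 92% had a CV under 20% and 33 had one over 50%.

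The libraries differed in groups of genes. Of the 29 expressed collagen chains 23 were highest in Control 1 (79.3%), beside 30.7% of all expressed protein-coding genes. Of the 44 expressed glycoproteins 27 were highest there (61.4%). The endothelial markers were also highest in Control 1, in 10 of 12 cases, and lowest in Control 2 in 10, beside 37.9% of all expressed protein-coding genes lowest there. Their part in the matrix levels was not tested. Proliferation genes were highest in Control 3 in 30 of 32 cases (93.8%, beside 45.2% of all) and lowest in Control 1 in 29 (beside 36.3% of all). Interferon response genes were highest in Control 3 in 16 of 22 cases. After the libraries were rescaled by the median ratio over genes, the collagens highest in Control 1 numbered 23, the glycoproteins 29 and the endothelial markers 10. The proliferation and interferon genes highest in Control 3 then numbered 28 and 16. Over all expressed protein-coding genes the shares were then 33.7% for Control 1 and 35.2% for Control 3.

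Of 23 expressed chemokines 14 were highest in Control 2 (60.9%, beside 24.1% of all), and the family summed to 1944, 4003 and 2088 TPM. After the same rescaling the count stayed at 14, beside 31.2% of all. Genes of the cytosolic ribosome were also highest in Control 2 in 53 of 89 cases (59.6%), and in 56 after rescaling. Lcn2, an iron-binding acute phase protein, was listed at 45.1, 824 and 118 TPM, and its mean without Control 2 was 81.8 TPM. Saa3, a serum amyloid protein, was listed at 14, 69.4 and 11.8 TPM, with a mean of 12.9 TPM without Control 2. Cxcl3 was listed at 16.3, 74 and 19.2 TPM, with a mean of 17.8 TPM without it. Rgs5, a pericyte gene, was listed at 7.41, 46 and 14.4 TPM and Aldh3a1, an aldehyde dehydrogenase, at 52.8, 234 and 90.1 TPM, with means of 10.9 and 71.4 TPM without Control 2. In each of these 5 genes Control 2 stood at least 2-fold above both other libraries. C3, the complement component, was chosen after its values were seen and was listed at 42.2, 144 and 49 TPM, with a mean of 45.6 TPM without Control 2.

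Control 1 was the high library for another group. Ctla2b, a protease inhibitor gene, was listed at 61.1, 14.8 and 16.2 TPM and Itgbl1, a secreted integrin-like protein, at 47.2, 8.96 and 21.6 TPM (mean 15.3 TPM without Control 1). Ctla2a, a close relative of Ctla2b, chosen after its values were seen, was listed at 526, 188 and 195 TPM (mean 192 TPM without Control 1). Small RNAs were also among the genes of widest spread. Rn7s1 and Rn7s2, copies of the signal recognition particle RNA, were both listed at 13.7, 35.2 and 115 TPM, and Rn7sk, a regulator of transcription elongation, at 9.38, 26.7 and 53.6 TPM. Mir1949 was listed at 8.58, 54.5 and 0 TPM and Snord22, a small nucleolar RNA, at 64.6, 29.5 and 0 TPM.

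**Figure D5:**
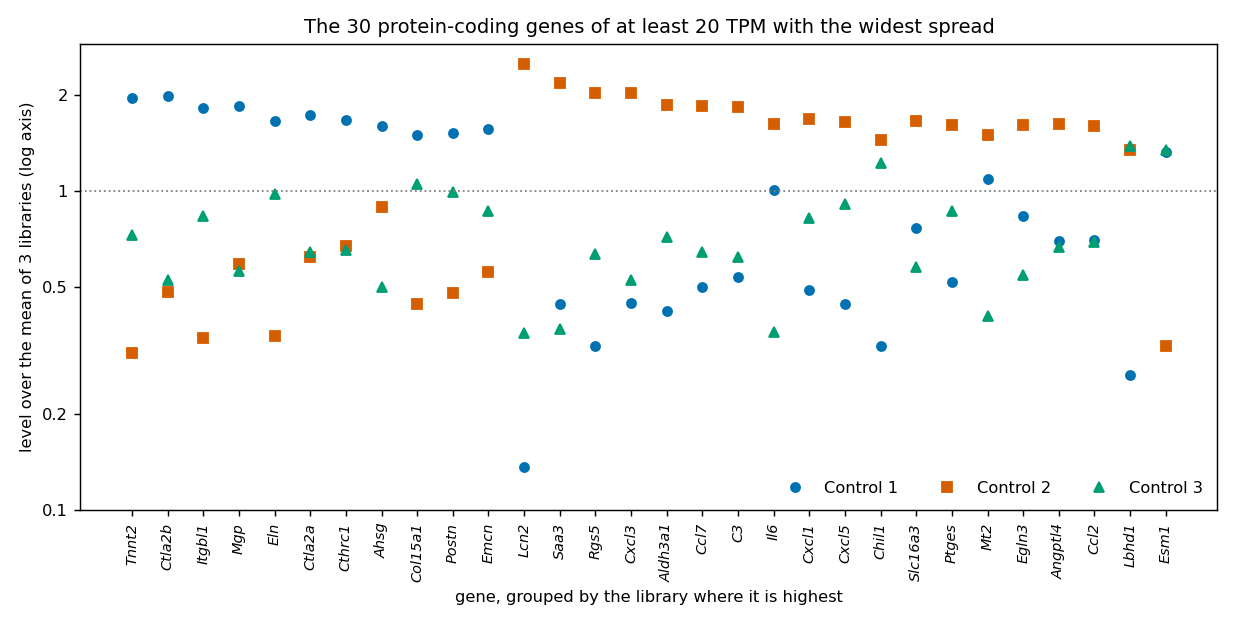
Level in each Control library divided by the mean of the 3 (log axis) for the 30 protein-coding genes with the highest coefficient of variation among those of at least 20 TPM, grouped by the library where the gene is highest. Control 2 stands apart for Lcn2, Saa3, Rgs5 and several chemokines, and Control 1 for Tnnt2, Ctla2b, Mgp and Eln.

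Counted over all 6292 protein-coding genes of at least 20 TPM, 38 stood at least 1.5-fold above both other libraries in Control 1, 43 in Control 2 and 15 in Control 3. At 2-fold the counts were 7, 15 and 0. Of 9 chemokines of at least 20 TPM, 6 (Ccl2, Ccl7, Cxcl1, Cxcl16, Cxcl3 and Cxcl5) were among the 43 of Control 2. The labels name no batch for the 3 libraries, so no values within a batch can be given.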

How the data were processed

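RNA of 3 Control libraries was taken from the deposited matrix of TPM values. Amplified cDNA from 50 ng of total RNA was sequenced as 100-base pairs on a HiSeq instrument, per the labels' protocols. The authors used STAR, RSEM 1.3.1 and the mm10 build, per the submitters' processing notes, and the deposited TPM values sum to the same total in each library within rounding. The gene annotation is not named in any source used here. TPM keeps no depth, so the depth is unknown and no interval or detection limit can be given, and a listed 0 may be a failed estimate. The kit does not mark strand, and near-identical genes may share reads.

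Means, SDs, ranks, summed TPM and ranges over the 3 libraries were computed with Python 3.11.15, numpy 2.4.6 and pandas 2.3.3, and figures with matplotlib 3.10.9; the scripts were tested on simulated data. Symbols were matched to GENCODE M21 (47697 of 51810), and promoters to RefSeq GRCm38.p6, where Col1a1, Mgp, Gata4, Dcn and Thbs1 had no entry. The members and the 67 gene lists were chosen with earlier results of these data known. Genes named were the 4 markers, the 25 highest, the 8 next highest that are neither mitochondrial nor ribosomal, up to 8 highest members of each list, members under 1 TPM, any member of a family, and the 15 genes of largest CV at or above 20 TPM without clone-named models and pseudogenes. Alternatives were nuclear protein-coding genes alone, mitochondrially encoded genes left out, median-ratio scaling, the median over libraries, other floors and pseudocounts, and leaving out each library. LDL and oxidised LDL samples were not used.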

Additional observations from a re-analysis of the deposited data

How the results depend on the processing

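No paired analysis was possible because 1 group was described and no groups were compared. With nuclear protein-coding genes alone, so without the mitochondrially encoded ones, the 100 highest genes held 28.1% of transcripts. Without a floor on level 24268 genes were above 0 in at least 1 library. The median CV was 11.1% with a floor of 1 TPM and 7.93% with a floor of 100 TPM. The median SD of log2 values was 0.13 with a pseudocount of 1 TPM and 0.11 with a pseudocount of 5 TPM. Leaving out each library in turn, the median CV ran from 6.64% to 8.55%. A CV over fewer libraries tends to be lower, so these values cannot be set against the 9.10% of all 3. The genes of at least 1 TPM ran from 13416 to 13515 and the share of collagens from 0.616% to 0.685%. That of glycoproteins ran from 1.95% to 2.56% and that of the 100 highest genes from 28.7% to 29.3%. Vim then ran from 5761 to 6374 TPM, Col1a1 from 1254 to 1465 TPM, Acta2 from 784 to 885 TPM, Postn from 84 to 143 TPM and Mgp from 3912 TPM, without Control 1, to 8285 TPM. With nuclear protein-coding genes alone, median-ratio scaling or the median over libraries, the levels of Vim, Col1a1, Acta2 and Postn moved by less than 1 SD. Median-ratio factors were 0.992, 0.982 and 1.03 for Control 1, Control 2 and Control 3. Depth is unknown, so the precision of low levels cannot be given.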

Other observations

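Of 23 interferon response genes 22 were expressed in medium to which the labels name no interferon as added. Bst2, which tethers budding virus, was listed at 342, 388 and 507 TPM, Isg15, a ubiquitin-like modifier, at 142, 131 and 165 TPM and Ifit3 at 79.5, 44.2 and 71.6 TPM. Mx1 was the only member under 1 TPM, at 0.13 TPM. All 16 immediate early genes, which respond within minutes to growth factors or stress, were expressed. Ier3 was listed at 204, 295 and 209 TPM, Junb at 234, 244 and 159 TPM and Egr1 at 90.7, 123 and 95.7 TPM.

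All 15 imprinted growth genes of the list were expressed. Rian, a maternally expressed non-coding RNA, was listed at 114, 88.6 and 147 TPM and Igf2r, which clears insulin-like growth factor 2, at 102, 82.7 and 101 TPM. Dlk1, of the same imprinted cluster as Rian, was the lowest member at 0.92, 1.64 and 1.5 TPM and was chosen after its values were seen. Slc2a1, the basal glucose transporter, was listed at 48.5, 58.2 and 44.1 TPM and held 62.9% of its family's TPM. The Y-linked genes Eif2s3y, Ddx3y, Kdm5d and Uty averaged 43.7, 26.8, 11.8 and 7.84 TPM in these mouse cells, and Xist, the RNA of the inactive X chromosome, was near 0 at 0, 0 and 0.25 TPM.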
